A study of Mus musculus with 36 samples.

Results

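Complex I (NADH:ubiquinone oxidoreductase) is the entry point for electrons from NADH into the respiratory chain. The genes described here are all nuclear symbols of the Nduf A, B, C, S and V series plus Ndufab1, with the assembly factors left out, and 38 of the 21156 gene symbols in the deposited table met that rule. Current nomenclature counts 36 of these 38 as subunits. Ndufa4 is now assigned to cytochrome c oxidase and Ndufa4l2 is its paralogue, so both are described separately. Expression was measured by RNA-seq of whole soleus, a small postural calf muscle rich in oxidative fibres, from male C57BL/6J mice, and the labels give 1 mouse per library. Old mice were 22 to 24 months of age and young mice 6 months. At each age the hind limbs were unloaded for 10 days and then reloaded for 3 days (reloading), unloaded for 10 days (unloading), or left loaded (control). The 36 libraries comprised 4 from old reloading, 6 from old unloading, 9 from old control, 4 from young reloading, 4 from young unloading and 9 from young control mice. The design addresses how disuse and early recovery act on soleus at the 2 ages.

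Complex I is an L-shaped assembly. Its peripheral arm, in the mitochondrial matrix, takes electrons from NADH through a flavin and a chain of iron-sulfur clusters to ubiquinone, and its membrane arm pumps protons. The catalytic core of the peripheral arm is encoded in the nucleus, the core of the membrane arm is encoded in mitochondrial DNA, and accessory subunits surround both. Oxidative muscle fibres depend on the complex for NADH oxidation during sustained work.

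The table held a single measured symbol for each member and 50 member transcripts in all. By place in the complex, the subunits comprised 7 nuclear core genes, 9 accessory genes of the peripheral arm, 9 of the proximal membrane arm, 10 of the distal membrane arm, and Ndufab1, the mitochondrial acyl carrier protein. The table held 0 rows for mitochondrially encoded genes, so the membrane core was not analysed here, and neither was Ndufb1.

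RefSeq start-site windows, from 250 bases before to 50 bases after each start (GRCm38.p6), were found for 32 of the 36 subunits. They are shown for 4 genes with contrasting responses: Ndufs8, with a large fall on unloading at both ages; Ndufb4, which fell on reloading at both ages; Ndufa11, which rose on reloading in young mice; and Ndufa7, which was not called on unloading at either age. The windows lie at chr19:3912725-3913024 on the minus strand for Ndufs8, chr16:37654319-37654618 on the minus strand for Ndufb4, chr17:56717512-56717811 on the plus strand for Ndufa11 and chr17:33824395-33824694 on the plus strand for Ndufa7. Each is written 5′ to 3′ on the strand of the gene. Capitals mark matches to letters bound by known regulators of mitochondrial genes: GCGCANGCGC for NRF1 and TNAAGGTCA for the estrogen-related receptors in Ndufb4, GCGCANGCGC in Ndufa11, and AANATGGCG for YY1 in Ndufa7.
Ndufs8: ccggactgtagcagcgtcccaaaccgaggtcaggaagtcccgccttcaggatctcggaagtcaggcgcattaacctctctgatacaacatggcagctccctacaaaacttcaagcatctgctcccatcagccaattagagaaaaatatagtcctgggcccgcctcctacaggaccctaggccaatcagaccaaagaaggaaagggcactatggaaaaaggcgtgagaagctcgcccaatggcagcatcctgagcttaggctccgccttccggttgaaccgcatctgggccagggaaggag
Ndufb4: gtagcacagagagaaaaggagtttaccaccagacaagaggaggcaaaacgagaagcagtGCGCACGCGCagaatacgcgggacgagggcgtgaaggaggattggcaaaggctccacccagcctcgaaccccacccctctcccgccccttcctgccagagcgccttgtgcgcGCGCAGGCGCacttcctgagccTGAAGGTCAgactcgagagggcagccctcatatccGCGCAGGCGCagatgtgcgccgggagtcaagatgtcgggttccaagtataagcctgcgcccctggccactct
Ndufa11: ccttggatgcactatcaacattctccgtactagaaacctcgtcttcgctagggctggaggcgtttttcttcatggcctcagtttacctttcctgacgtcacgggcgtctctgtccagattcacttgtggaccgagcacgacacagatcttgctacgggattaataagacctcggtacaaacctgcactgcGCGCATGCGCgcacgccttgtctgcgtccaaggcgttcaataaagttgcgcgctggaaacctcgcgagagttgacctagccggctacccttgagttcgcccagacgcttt
Ndufa7: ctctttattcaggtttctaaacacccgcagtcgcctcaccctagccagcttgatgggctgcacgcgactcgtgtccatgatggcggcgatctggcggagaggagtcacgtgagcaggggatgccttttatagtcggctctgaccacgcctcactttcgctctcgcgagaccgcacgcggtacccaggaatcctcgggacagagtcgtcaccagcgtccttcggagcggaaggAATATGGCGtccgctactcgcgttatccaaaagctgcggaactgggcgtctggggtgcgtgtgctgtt

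These motifs were searched on both strands, and a match is a description of letters, not of binding. Subunit shares count each of the 32 genes once if any of its windows (34 in all) matched, whereas the other shares are per window, so the 2 are not like for like. The NRF1 letters stood in a window of 7 of the 32 subunits, or 21.9%, against 4.6% of all 32851 RefSeq windows and 8.72% of the 14504 windows of genes tested. These subunits were Ndufa5, Ndufa6, Ndufa8, Ndufa11, Ndufb4, Ndufs5 and Ndufs6. The YY1 letters also stood in windows of 7 subunits (Ndufa7, Ndufa9, Ndufb11, Ndufc1, Ndufs4, Ndufs6 and Ndufs7), or 21.9%, against 2.38% of all windows and 4.37% of those of genes tested. The receptor letters were found only in Ndufb4, which is 3.12% of the subunits, against 1.28% and 0.814%. The last motif, CCGGAAGT for ETS factors and GABP, stood in Ndufs3 alone, again 3.12%, against 3.89% and 6.98%. The Ndufs8 window held no match to any of these motifs. The genes with a match moved both ways on reloading, as the values of Ndufb4 and Ndufa11 show below.

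Deposited libraries held between 32 M and 37.9 M reads, and 15031 genes passed the filter on low counts, among them all 38 genes of the rule. Values below are read counts scaled to library size (CPM) after scaling by the trimmed mean of M values (TMM). Fold changes are log2 values with their standard error (SE) from edgeR's quasi-likelihood test, called at a Benjamini-Hochberg adjusted p under 0.05. In whole muscle, fewer cells of a type and less RNA per cell cannot be told apart. In 6 libraries the liver transcript Alb stood above 20 CPM: old reloading mice 2 (1740 CPM) and 4 (154 CPM), old unloading mouse 6 (36.2 CPM), young reloading mice 1 (72.5 CPM) and 2 (29.8 CPM), and young unloading mouse 2 (39.6 CPM). Without them 32 of the 38 genes were called on unloading in old mice, against 34 with them, and 34 in young mice, as with them. Other results that depend on them are given both ways. The share of all genes called is given only for the fit to all 36 libraries. A changed count in other fits can therefore not be told apart from a general change in calls. Slow-fibre transcripts were abundant in every group: the summed level of 7 slow-fibre genes had a median of 20300 to 32200 CPM over the 6 groups.

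Per transcript length, the subunits of one complex differed widely in level. In the authors' length- and depth-scaled unit (RPKM), young control soleus had the highest level for Ndufb9, an LYR-motif subunit of the distal arm, at 355 ± 18, followed by Ndufb8, of the same arm, at 294 ± 15.5 (SD, n = 9 each). The lowest were Ndufs4, needed for the late steps of peripheral arm assembly, at 59.9 ± 4.09, Ndufa11 at 22.4 ± 1.27, and Ndufs5 at 3.96 ± 1.12 (SD, n = 9 each). Neighbours in the order often lay within their spread, for example Ndufb10 at 185 ± 14.8 and Ndufa3 at 184 ± 11.4. The order depends on the annotated transcript lengths. Ndufa11, with 82.5 to 99.7 CPM in young control libraries, stood above Ndufc1 (59.0 to 72.6 CPM), but below it in RPKM (22.4 against 103). Reads of Ndufs5 may have been divided with an overlapping gene, as described below. The median over the subunits was 63.8 RPKM in old reloading, 80.4 in old unloading, 101 in old control, 71.2 in young reloading, 80.2 in young unloading and 121 in young control. Ndufb9 was highest and Ndufs5 lowest in all 6 groups. The order was close to that of young control everywhere, with Spearman's rho over 36 genes of 0.914 for old reloading, 0.92 for old unloading, 0.99 for old control, 0.953 for young reloading and 0.936 for young unloading; these points share transcript lengths and sequence composition.

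After 10 days of unloading, nearly all subunit genes were lower at both ages, including every nuclear core gene. In old mice 33 of the 36 fell and 0 rose, where 23.2% of the 15031 genes were called lower and 42.7% in either direction. Their median log2 fold change was -0.42, against -0.003 over all genes. In young mice 33 of 36 also fell and 0 rose, where 21.7% of genes were called lower and 40.8% in either direction, with a median of -0.56 against 0.004. The 3 not called were Ndufa2, Ndufa7 and Ndufs5 at both ages.

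**Figure D1:**
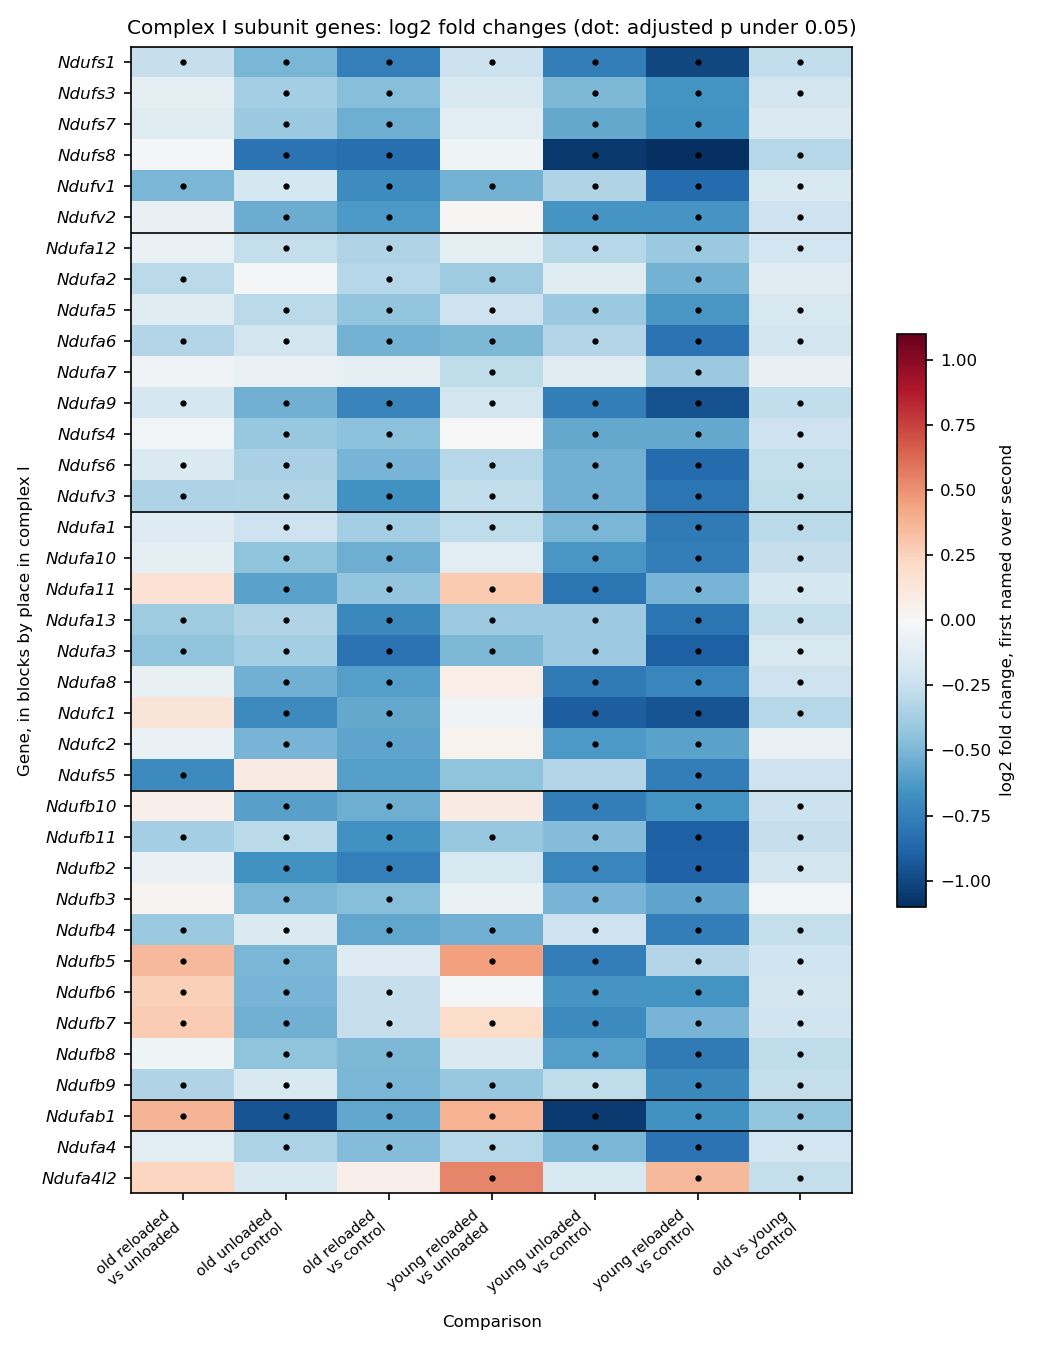
Log2 fold change of 37 of the 38 genes (rows, in blocks by place in the complex) in 7 comparisons (columns), as colour; a dot marks an adjusted p under 0.05. The columns of unloading against control are negative with dots for 32 of the 35 subunits shown at each age, and the columns of reloading against unloading hold both signs.

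Ndufs8, which carries iron-sulfur clusters close to the ubiquinone site, had the largest fall of the core genes shown at both ages. Its level in old unloading mice ran from 44.4 to 58.0 CPM (median 49.9), against 70.5 to 110.0 CPM (median 87.1) in old control mice. In young unloading mice it was 55.4, 55.1, 49.8 and 51.8 CPM, against 103 to 125 CPM (median 108) in young control mice. Unloaded and control libraries did not overlap at either age, and both unloaded groups sat near the same level. Ndufs8 fell by 43.0% in old mice (log2 -0.81, SE 0.07, adjusted p = 1.86e-10) and by 51.9% in young mice (log2 -1.06, SE 0.08, adjusted p = 2.87e-11).

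Ndufs1, the largest core subunit, which receives electrons from the flavin end, was 276 to 356 CPM (median 310.0) in old unloading mice, against 339 to 510.0 CPM (median 443) in old control mice. In young unloading mice it was 309, 321, 307 and 308 CPM, against 497 to 554 CPM (median 537) in young control mice. The old groups overlapped and the young groups lay far apart. It fell by 29.4% in old mice (log2 -0.50, SE 0.07, adjusted p = 2.18e-07) and by 40.9% in young mice (log2 -0.76, SE 0.08, adjusted p = 1.94e-09). Ndufv2, an iron-sulfur subunit of the NADH-oxidising module, averaged 149 ± 14.7 CPM in old unloading (SD, n = 6) against 218 ± 26.8 CPM in old control (SD, n = 9), a log2 change of -0.55. Its young change was -0.65, and neither age showed overlap between unloaded and control libraries. Ndufs7, which carries the last cluster before ubiquinone, changed by -0.41 in old and -0.56 in young mice. Ndufs3, of the same module, changed by -0.37 in old and -0.49 in young mice, and all 4 of these changes passed the test.

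Ndufv1, which binds NADH and the flavin, had the smallest core response to unloading. It ranged from 319 to 370.0 CPM (median 337) in old unloading mice, against 306 to 470.0 CPM (median 391) in old control mice. Young unloading mice had 326, 370, 346 and 352 CPM, against 409 to 463 CPM (median 440) in young control mice. Only the young groups were separate. Its log2 change was -0.19 in old mice (SE 0.07, adjusted p = 0.0245) and -0.33 in young mice (SE 0.08, adjusted p = 0.000831). Without the libraries with Alb the old change was -0.17 (adjusted p = 0.0582). The old call also ended when any of 4 libraries was left out: the adjusted p was 0.0613 without old control mouse 7, 0.0545 without old control mouse 9, 0.0626 without old unloading mouse 2 and 0.0553 without old unloading mouse 6.

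**Figure D2:**
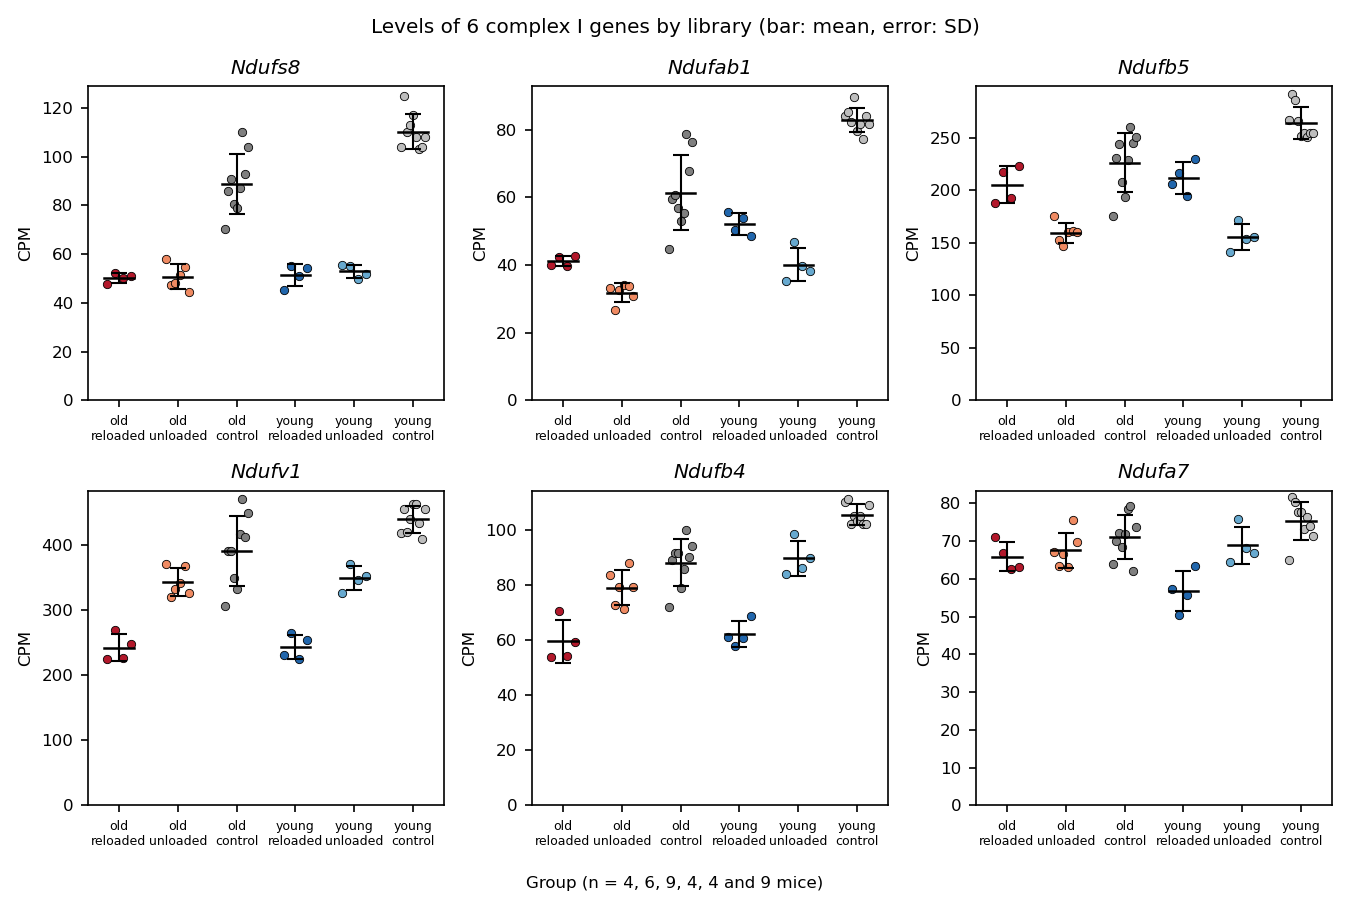
TMM-scaled CPM of 6 genes in each library, with the mean and SD of each group as bars, from old reloading at the left to young control at the right. Ndufs8 stays low after reloading, Ndufab1 and Ndufb5 are higher in reloaded than in unloaded mice, Ndufv1 and Ndufb4 are lowest after reloading, and Ndufa7 differs least between the groups.

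Among the accessory genes, Ndufab1, which as acyl carrier protein also serves mitochondrial fatty acid synthesis and iron-sulfur cluster assembly, had the largest fall in old mice. It ranged from 26.6 to 34.1 CPM (median 32.8) in old unloading mice, against 44.8 to 78.7 CPM (median 59.4) in old control mice. Young unloading mice had 35.3, 46.8, 39.8 and 38.3 CPM, against 77.3 to 89.7 CPM (median 82.3) in young control mice. The groups did not overlap at either age. The log2 change was -0.95 in old mice (SE 0.08, adjusted p = 1.86e-10) and -1.05 in young mice (SE 0.10, adjusted p = 4.56e-10). With the libraries with Alb left out, the young change was -1.13 for Ndufab1 and -1.07 for Ndufs8, so the order of these genes in young mice turned on the libraries used. Ndufc1, a small membrane-arm subunit, followed with -0.70 in old (adjusted p = 8.8e-10) and -0.91 in young mice (adjusted p = 1.19e-10).

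All 10 distal membrane arm genes fell at both ages, with a median log2 change of -0.50 in old and -0.63 in young mice. Within that arm the response was uneven. Ndufb5 changed by -0.50 in old and -0.76 in young mice and Ndufb7, which faces the intermembrane space, by -0.53 and -0.70, whereas Ndufb4 changed by only -0.16 in old mice (adjusted p = 0.0378) and -0.23 in young mice (adjusted p = 0.0078). The old call of Ndufb4 ended without old control mouse 3, 4, 7, 8 or 9, or without old unloading mouse 2, 3, 4 or 6 (adjusted p 0.0565 to 0.108). Ndufb2 changed by -0.67 in old and -0.72 in young mice, Ndufb10 by -0.60 and -0.76, Ndufb8 by -0.44 and -0.61, and Ndufb3 by -0.50 and -0.51. The proximal arm had 8 of 9 genes lower at each age, with medians of -0.44 in old and -0.63 in young mice, and the core 7 of 7, with medians of -0.41 and -0.61. Proximal examples were Ndufa8, an intermembrane-space subunit (-0.53 in old, -0.78 in young), Ndufc2 (-0.51 and -0.63) and Ndufa10, which has the fold of a nucleoside kinase (-0.44 and -0.64). The peripheral accessory genes had 7 of 9 lower at each age and the medians nearest 0, at -0.30 in old and -0.41 in young mice. Among them, Ndufa9, which binds NADPH near the ubiquinone site, changed by -0.53 in old and -0.76 in young mice and Ndufs4 by -0.42 and -0.56, whereas Ndufa12 changed by -0.26 and -0.31 and Ndufa5 by -0.30 and -0.41. The places were not tested against each other.

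The 3 genes not called on unloading lay in different places. Ndufa7, a peripheral accessory subunit, was 63.2 to 75.5 CPM (median 66.8) in old unloading mice, against 62.0 to 79.2 CPM (median 71.8) in old control mice, and 64.5, 75.8, 68.1 and 66.9 CPM in young unloading mice, against 64.9 to 81.7 CPM (median 76.5) in young control mice. The groups overlapped at both ages, with log2 changes of -0.07 (SE 0.06, adjusted p = 0.321) and -0.13 (SE 0.07, adjusted p = 0.112). Ndufa2, a peripheral accessory subunit with a thioredoxin-like fold, changed by -0.01 in old mice (adjusted p = 0.938) and -0.13 in young mice (adjusted p = 0.0982). Ndufs5, an intermembrane-space subunit, rested on 39 to 171 reads per library. It averaged 2.81 ± 0.803 CPM in old unloading (SD, n = 6) and 2.64 ± 1.03 CPM in old control mice (SD, n = 9). The annotation puts it on the same strand as the overlapping gene BC002163, which averaged 21.6 CPM in young control mice, so reads of this pair may have been divided in counting. BC002163 fell on unloading at both ages, by 0.60 in old mice (adjusted p = 8.84e-09) and by 0.53 in young mice (adjusted p = 8.63e-07) on the log2 scale.

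Unloading responses were set side by side between the ages, which share no library. The log2 change was more negative in young than in old mice for 36 of 36 subunits, and the responses ran together over the 36 genes (Pearson's r = 0.927, Spearman's rho = 0.927, a description across genes that share libraries). The difference in response, old minus young, had a median of 0.15 on the log2 scale over the subunits, against -0.004 over all genes, and ranged from 0.01 to 0.41. In edgeR's test of that difference itself, 0 of 36 subunits passed, as did 0.0% of all genes, although 1487 of the 15031 genes had an unadjusted p under 0.05.

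**Figure D3:**
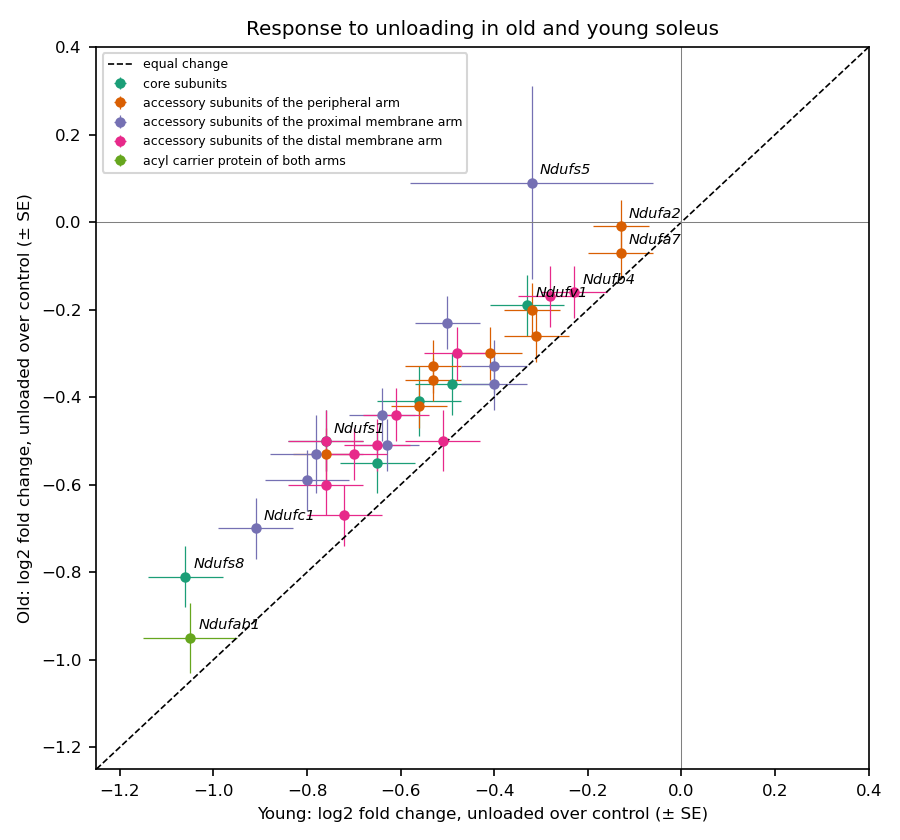
Log2 fold change on unloading in old mice (vertical) against that in young mice (horizontal) for 35 of the 36 subunits, with SE bars, coloured by place in the complex, and a line of equal change. All 35 points lie above the line, and the 3 nearest 0 in old mice are Ndufa2, Ndufa7 and Ndufs5.

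After 3 days of reloading the subunits divided. Relative to unloading, 14 of 36 fell and 4 rose in old mice, where 23.5% of all genes were called lower, 27.8% higher and 51.3% in either direction. In young mice 16 fell and 4 rose, where 21.5% of genes were called lower, 26.4% higher and 47.9% in either direction. The median log2 change was -0.10 in old and -0.17 in young mice, against 0.028 and 0.057 over all genes. The range ran from -0.70 to 0.37 in old and from -0.53 to 0.45 in young mice. The share called in either direction was near that of all genes in this comparison. Without the 6 libraries with Alb, 14 of the 38 genes of the rule were called in young mice, against 22 with them, and 4 of these 14 were higher.

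Among the genes that rose, Ndufb5, a distal arm subunit, was 188, 218, 193 and 223 CPM in old reloading mice, against 147 to 176 CPM (median 160.0) in old unloading mice. It was 206, 217, 195 and 230 CPM in young reloading mice, against 141, 172, 154 and 156 CPM in young unloading mice. Neither age showed overlap. The log2 change was 0.36 in old mice (SE 0.08, adjusted p = 0.000321) and 0.45 in young mice (SE 0.09, adjusted p = 0.000102). Without the libraries with Alb these became 0.24 (adjusted p = 0.0594) and 0.48 (adjusted p = 0.00125).

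Ndufab1 stood at 40, 42.3, 39.7 and 42.7 CPM in old reloading mice, all above the 26.6 to 34.1 CPM (median 32.8) of old unloading mice. In young reloading mice it was 55.5, 50.3, 53.8 and 48.4 CPM, all above the 35.3, 46.8, 39.8 and 38.3 CPM of young unloading mice. It rose by 0.37 in old mice (SE 0.10, adjusted p = 0.00229) and 0.38 in young mice (SE 0.11, adjusted p = 0.00518). Without the libraries with Alb the changes were 0.31 (adjusted p = 0.063) and 0.42 (adjusted p = 0.0224). Reloaded libraries lay below all control libraries at both ages.

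Ndufb7 was 81.0, 86.1, 80.4 and 81.9 CPM in old reloading mice, against 61.6 to 80.5 CPM (median 66.3) in old unloading mice, with slight overlap, and rose by 0.28 (SE 0.07, adjusted p = 0.00093). In young mice it was 81.7, 86.6, 72.1 and 80.3 CPM after reloading, against 67.1, 75.9, 67.4 and 69.7 CPM after unloading, with overlap, and rose by 0.20 (SE 0.08, adjusted p = 0.0331). That young call ended without any of 6 libraries: the adjusted p was 0.0939 without young reloading mouse 1, 0.156 without mouse 2 and 0.0782 without mouse 4, and 0.128, 0.118 and 0.0903 without young unloading mice 1, 3 and 4. It was also 0.249 without the libraries with Alb. Ndufb6, another distal subunit, was 58.3, 61.6, 60.8 and 61.1 CPM in old reloading mice, against 44.3 to 56.4 CPM (median 50.2) in old unloading mice, with no overlap. It rose by 0.26 in old mice (adjusted p = 0.00215, and 0.0556 without the libraries with Alb), and its young change was -0.01. Ndufa11, a membrane-arm subunit known from human cells to be needed for the stability of the complex, rose by 0.29 in young mice (SE 0.10, adjusted p = 0.0137), with 59.6, 68.3, 61.2 and 68.8 CPM after reloading against 49.2, 55.3, 52.4 and 53.8 CPM after unloading. Its young call ended without young reloading mouse 2 (adjusted p = 0.0542) or 4 (0.0595), or young unloading mouse 1 (0.0657), and its old change was 0.16 (adjusted p = 0.122).

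Among the genes that fell on reloading was Ndufb4, a distal arm subunit. It was 53.7, 70.5, 54.1 and 59.3 CPM in old reloading mice, against 71.3 to 87.9 CPM (median 79.1) in old unloading mice. In young reloading mice it was 61.2, 57.9, 60.5 and 68.8 CPM, against 83.9, 98.5, 86.1 and 89.8 CPM in young unloading mice. Reloaded libraries lay wholly below unloaded ones at both ages. The log2 change was -0.41 in old mice (SE 0.08, adjusted p = 3.66e-05) and -0.53 in young mice (SE 0.08, adjusted p = 2.98e-06). Without the libraries with Alb the young value was -0.44 (adjusted p = 0.000646), less than the -0.53 of Ndufv1.

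Ndufv1, the NADH-binding core gene with a small unloading response, was 225, 269, 226 and 247 CPM in old reloading mice, against 319 to 370.0 CPM (median 337) in old unloading mice. In young reloading mice it was 231, 264, 224 and 254 CPM, against 326, 370, 346 and 352 CPM in young unloading mice. The groups were separate at both ages. The change was -0.50 in old mice (SE 0.08, adjusted p = 7.3e-06) and -0.52 in young mice (SE 0.09, adjusted p = 1.67e-05), and without the libraries with Alb it was -0.63 and -0.53. Of the other core genes, Ndufs1 fell by 0.25 in old (adjusted p = 0.00923) and 0.24 in young mice (adjusted p = 0.0256) on the log2 scale. The young call of Ndufs1 ended without young reloading mouse 1 (-0.23, adjusted p = 0.0566) and without the libraries with Alb (-0.22, adjusted p = 0.122), with the change about as large. Ndufs3, Ndufs7, Ndufs8 and Ndufv2 were not called at either age. Ndufs8 stood at 47.7, 52.1, 50.1 and 51.0 CPM in old reloading mice and at 45.3, 55.0, 50.9 and 54.3 CPM in young reloading mice, within the range of the unloaded libraries at the older age and overlapping them at the younger.

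By place, 5 of 9 peripheral accessory genes fell in old mice and 7 of 9 in young mice, with medians of -0.16 and -0.27 and none higher. The distal arm had 3 genes lower and 3 higher in old mice and 3 lower and 2 higher in young mice, with medians of -0.01 and -0.12. Among all genes, 23.5% were called lower and 27.8% higher in old mice, and 21.5% lower and 26.4% higher in young mice. The distal counts lay near these shares, and the places were not tested against each other on reloading. Accessory genes that fell at both ages included Ndufa3 (-0.44 in old, -0.49 in young), Ndufa13 (-0.39 and -0.40), Ndufa6, an LYR-motif subunit that binds the acyl carrier protein (-0.32 and -0.49), Ndufb11 (-0.37 and -0.42), Ndufb9 (-0.33 and -0.42) and Ndufv3 (-0.34 and -0.27). Several genes with clear falls on unloading were not called on reloading at either age, among them Ndufs4 (-0.03 in old, 0.0 in young), Ndufb10 (0.06 and 0.09), Ndufa8 (-0.08 and 0.07) and Ndufc2 (-0.07 and 0.04). Ndufa2 fell on reloading (-0.30 in old, -0.39 in young), although it was not called on unloading. Ndufa7 fell in young mice (-0.28, SE 0.08, adjusted p = 0.00308), and its old change was -0.04. Without the libraries with Alb the young calls of Ndufa7 (-0.17, adjusted p = 0.152) and Ndufv3 (-0.22, adjusted p = 0.0734) ended. Ndufs5 had the lowest old value, -0.70 (SE 0.28, adjusted p = 0.0395), on 43 to 139 reads per library, and that call ended without old reloading mouse 1, 2 or 3, or without old unloading mouse 1, 4 or 5 (adjusted p 0.0571 to 0.134). Values for the 2 ages stood close for most genes (Pearson's r = 0.898, Spearman's rho = 0.9 over 36 genes), and 23 of 36 were more negative in young mice. In the test of the difference in reloading response 0 of 36 subunits passed, where 0.778% of all genes did (0.286% lower and 0.492% higher), and the median difference was 0.04 against -0.01 over all genes.

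Relative to control, reloaded soleus held lower levels of nearly the whole set. In old mice 33 of 36 subunits were lower and 0 higher, where 21.1% of genes were called lower and 42.9% in either direction, with a median of -0.54 against 0.005. In young mice all 36 were lower, where 22.9% of genes were called lower and 49.6% in either direction, with a median of -0.74 against 0.056. These comparisons share the reloaded and control libraries with those above. The not-called genes in old mice were Ndufa7, Ndufs5 and Ndufb5, whose reloaded level of 205 ± 17.4 CPM (SD, n = 4) stood near the old control level of 226 ± 28.1 CPM (SD, n = 9; log2 -0.14, adjusted p = 0.135). In young mice Ndufb5 was still lower than control (log2 -0.32, adjusted p = 0.000829). Ndufs8 differed from control by -0.83 in old (SE 0.08, adjusted p = 1.81e-09) and -1.1 in young mice (SE 0.09, adjusted p = 2.77e-12), and Ndufs1 in young mice by -1.0 (SE 0.08, adjusted p = 3.84e-12).

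In loaded muscle most subunits were lower in old than in young mice. In old control against young control soleus 30 of 36 subunits were lower and 0 higher, where 11.6% of genes were called lower, 12.1% higher and 23.7% in either direction, with a median of -0.23 against 0.006. The largest difference was that of Ndufab1, at 44.8 to 78.7 CPM (median 59.4) in old control against 77.3 to 89.7 CPM (median 82.3) in young control mice. The ranges overlapped, and the log2 difference was -0.43 (SE 0.07, adjusted p = 6.36e-05). The genes of the set without overlap between the ages were Ndufb4 (-0.26), Ndufa1 (-0.30) and Ndufs6 (-0.26). Ndufa1 is a small membrane-arm subunit encoded on the X chromosome, and Ndufs6 is a zinc-binding peripheral subunit. The share of all genes without overlap is not given here. Ndufv1 was also called (-0.17, adjusted p = 0.0392), but lost the call without old control mouse 1, 2, 3, 4 or 5, or without young control mouse 2, 4, 5, 6 or 9 (adjusted p 0.0512 to 0.0932). Not called were Ndufa2, Ndufa7, Ndufb3, Ndufc2, Ndufs5 and Ndufs7 (-0.16, adjusted p = 0.0861).

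The spread among old controls was wide. Taken as the median log2 difference of 35 subunits (Ndufs5 left out) from the mean of the same-age controls, old control libraries ran from -0.31 to 0.23 and young control libraries from -0.06 to 0.10. Old control mouse 1 had 35 of 35 genes below the old control mean, whereas old control mice 7 and 9 (0.23 and 0.16) had 0 below it and mouse 8 (0.09) had 1. Old control mice 1 to 6 ran from -0.31 to 0.04, so the 3 highest old control libraries were those numbered 7 to 9, whereas young control mice 7 to 9 lay at -0.06, -0.05 and 0.0. The labels do not say whether mice 7 to 9 were handled apart from the others, and this cannot be told apart from variation between mice. With the controls numbered 1 to 6 the median over the 38 genes on unloading in old mice was -0.30, with 30 genes lower, against -0.39 and 34 with all 9. For old against young control the median was then -0.32, with 34 genes lower, against -0.23 and 32. On the same measure old reloading libraries ran from -0.62 to -0.43, old unloading from -0.52 to -0.28, young reloading from -0.80 to -0.66 and young unloading from -0.63 to -0.48. Old control mouse 1 thus lay within the range of the old unloading libraries. Subunit reads made up a median of 0.341% of all reads in old reloading, 0.411% in old unloading, 0.518% in old control, 0.381% in young reloading, 0.42% in young unloading and 0.615% in young control libraries.

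**Figure D4:**
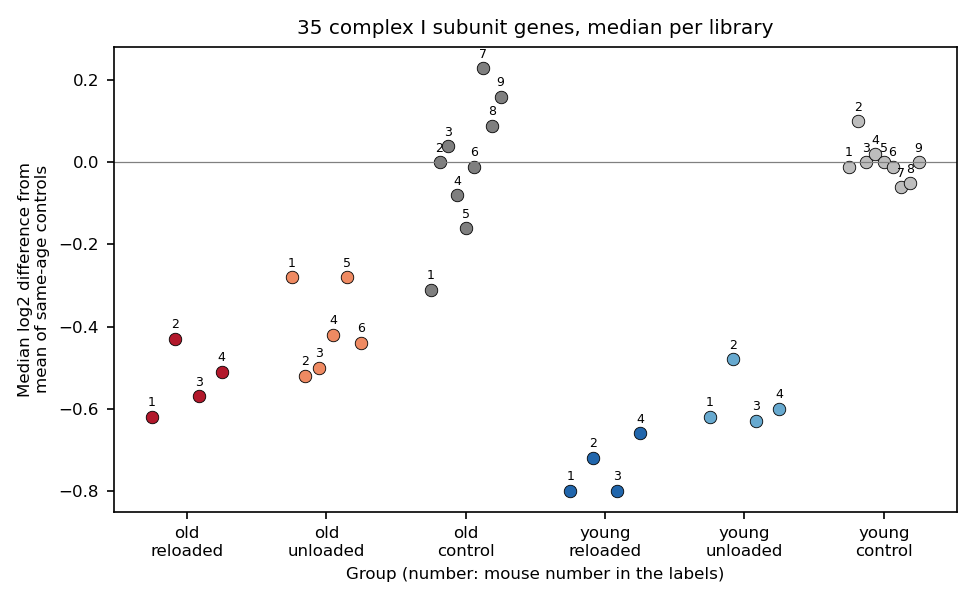
Median log2 difference of 35 subunits from the mean of the same-age control libraries, 1 point per library, by group from old reloading at the left to young control at the right. Reloaded and unloaded libraries all lie below 0, and old controls spread from -0.31 to 0.23.

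Between the ages after unloading, 1 of 36 subunits differed and was lower, where 5.16% of genes were called lower and 9.81% in either direction, with a median of -0.07. That gene was Ndufab1, with no overlap between old and young unloading libraries (-0.33, SE 0.10, adjusted p = 0.0301). Its call ended without young unloading mouse 2 (-0.26, adjusted p = 0.165) or 3 (0.0596), without old unloading mouse 2 (0.0795) or 6 (0.0528), and without the libraries with Alb (-0.25, adjusted p = 0.22). After reloading 3 of 36 differed in old against young mice, where 9.67% of genes were called lower, 10.0% higher and 19.7% in either direction. Ndufab1 was lower (-0.34, SE 0.11, adjusted p = 0.0297), a call that ended without old reloading mouse 1 or 3 or young reloading mouse 1, 2 or 3 (0.0506 to 0.0737). On the same comparison Ndufb6 (0.21, adjusted p = 0.0472) and Ndufa7 (0.22, adjusted p = 0.0437) were higher. The Ndufa7 call ended without young reloading mouse 1 (0.0547), 2 (0.158) or 3 (0.0739), or old reloading mouse 1 (0.126) or 2 (0.0769), and the Ndufb6 call without any of the 8 reloaded libraries (0.0519 to 0.098). With Ndufa4l2 4 of the 38 genes were called in this comparison, against 1 without young reloading mouse 1, 2 or 3 or old reloading mouse 1, 2 without old reloading mouse 3, and 0 without the libraries with Alb.

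The response of reloaded against control muscle was also compared between ages. In edgeR's test of that difference, old minus young, 4 of 36 subunits were called, all positive, where 2.32% of genes were called higher, 2.49% lower and 4.82% in either direction. The median was 0.19 over the subunits and -0.007 over all genes. Ndufb6 changed by -0.25 in old and -0.66 in young mice, a difference of 0.42 (SE 0.09, adjusted p = 0.0114). Ndufa1 changed by -0.37 in old and -0.78 in young mice, a difference of 0.41 (SE 0.10, adjusted p = 0.0186). Ndufc1 differed by 0.39 (SE 0.11, adjusted p = 0.0324) and Ndufs6 by 0.33 (SE 0.08, adjusted p = 0.0227). With Ndufa4 (0.33) 5 of the 38 genes were called, a count that was 1 without young reloading mouse 2, 3 without old reloading mouse 4 and 8 without old control mouse 7. It was 15 with the controls numbered 1 to 6 and 9 with the DESeq2 Wald test. Shares of all genes called under these alternatives are not given here. Without young reloading mouse 2, one of the libraries with Alb, the differences were no longer called for Ndufa1 (0.34, adjusted p = 0.0604), Ndufc1 (adjusted p = 0.0727) and Ndufs6 (adjusted p = 0.0558), and without old reloading mouse 4 that of Ndufc1 was not (adjusted p = 0.0604). With all 6 such libraries left out, 0 of the 38 genes were called and the difference of Ndufb6 was 0.38 (adjusted p = 0.17).

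The pair outside the complex moved in opposite directions on reloading in young mice, and both were called lower in old control than in young control mice. Ndufa4, of cytochrome c oxidase, was 215 to 244 CPM (median 225) in old unloading mice, against 235 to 343 CPM (median 295) in old control mice, and 235, 249, 226 and 238 CPM in young unloading mice, against 320.0 to 364 CPM (median 335) in young control mice. It fell by 0.35 in old (adjusted p = 1.09e-05) and 0.50 in young mice (adjusted p = 4.93e-07) on the log2 scale, with overlap only at the older age. On reloading it fell in young mice (-0.31, adjusted p = 0.00156), a call that ended without the libraries with Alb (-0.21, adjusted p = 0.099), and its old change was -0.12. Ndufa4l2, a hypoxia-induced paralogue, was 6.05, 8.99, 7.02 and 6.84 CPM in young reloading mice, against 4.3, 5.97, 5.13 and 4.44 CPM in young unloading mice. These groups did not overlap, and it rose by 0.54 (SE 0.14, adjusted p = 0.00143), which was 0.57 (adjusted p = 0.00639) without the libraries with Alb. Old reloading mice had 4.6, 5.06, 5.45 and 4.56 CPM, all below young reloading mice (-0.55, SE 0.14, adjusted p = 0.00544), a difference that was -0.46 (adjusted p = 0.129) without those libraries. It was the only gene of the 38 higher than control after reloading in young mice (0.36, adjusted p = 0.00917), and not without young reloading mouse 2 (0.22, adjusted p = 0.125) or without the libraries with Alb (0.29, adjusted p = 0.0951). On unloading Ndufa4l2 was not called at either age (-0.21 in old and -0.28 in young mice without the libraries with Alb). Without those libraries the difference between old and young control was -0.26 for Ndufa4l2 and -0.21 for Ndufa4. With them, the Ndufa4l2 call ended without young control mouse 5, 6, 7 or 9, or old control mouse 1, 2, 4, 5, 6 or 8 (adjusted p 0.0546 to 0.0867). The annotation of Ndufa4l2 overlaps Shmt2 on the opposite strand, at 20.1 CPM in young control mice, and the sources used here do not say whether counting used strand.

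Transcripts were read separately in the table, and 7 of the 38 genes had more than 1. Their shares were compared by exact 2-sided permutation tests in 9 comparisons per gene, 63 tests in all, chosen after the values were seen. Ndufv3, an accessory subunit of the NADH-oxidising module, has a longer transcript of 1579 bases and a shorter one of 487. The longer made up 31.9 ± 2.32% of Ndufv3 reads in old reloading (SD, n = 4), 21.2 ± 2.05% in old unloading (SD, n = 6) and 27.9 ± 4.19% in old control mice (SD, n = 9). In young mice it made up 32.1 ± 2.65% after reloading, 19.9 ± 2.02% after unloading (SD, n = 4 each) and 23.4 ± 3.36% in control mice (SD, n = 9). The share was lower in old unloading than in old control mice (exact permutation p = 0.003, adjusted p = 0.0378) and higher in young reloading than in young control mice (exact permutation p = 0.0014, adjusted p = 0.022). In old reloading against old unloading mice the exact permutation p was 0.00476 and the adjusted p 0.05, which was not under the threshold. With 4 against 4 libraries the smallest p the design allows is 0.0286, which young reloading against young unloading reached (exact permutation, adjusted p = 0.113).

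On reloading the shorter Ndufv3 transcript was the one with the lower level, at 33.0 CPM in old reloading against 48.5 CPM in old unloading mice and 36.6 CPM in young reloading against 52.0 CPM in young unloading mice. The longer was 15.4 CPM in old reloading against 13.0 CPM in old unloading mice, and 17.4 CPM in young reloading against 12.9 CPM in young unloading mice. For Ndufs6 a non-coding transcript of 567 bases took a larger share after unloading: 10.3 ± 0.891% in old unloading (SD, n = 6) against 7.4 ± 1.23% in old control mice (SD, n = 9; exact permutation p = 0.000799, adjusted p = 0.022). In young mice it took 11.8 ± 0.603% after unloading (SD, n = 4) against 7.28 ± 1.5% in control mice (SD, n = 9; exact permutation p = 0.0014, adjusted p = 0.022). A second Ndufs1 transcript of 2823 bases took 35.2 ± 1.94% in young unloading (SD, n = 4) against 30 ± 0.99% in young control mice (SD, n = 9; exact permutation p = 0.0014, adjusted p = 0.022). The other 4 genes with several transcripts had 0 of 9 comparisons past the threshold. The authors' counts divide reads between transcripts that share exons, so these shares are estimates.

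**Figure D5:**
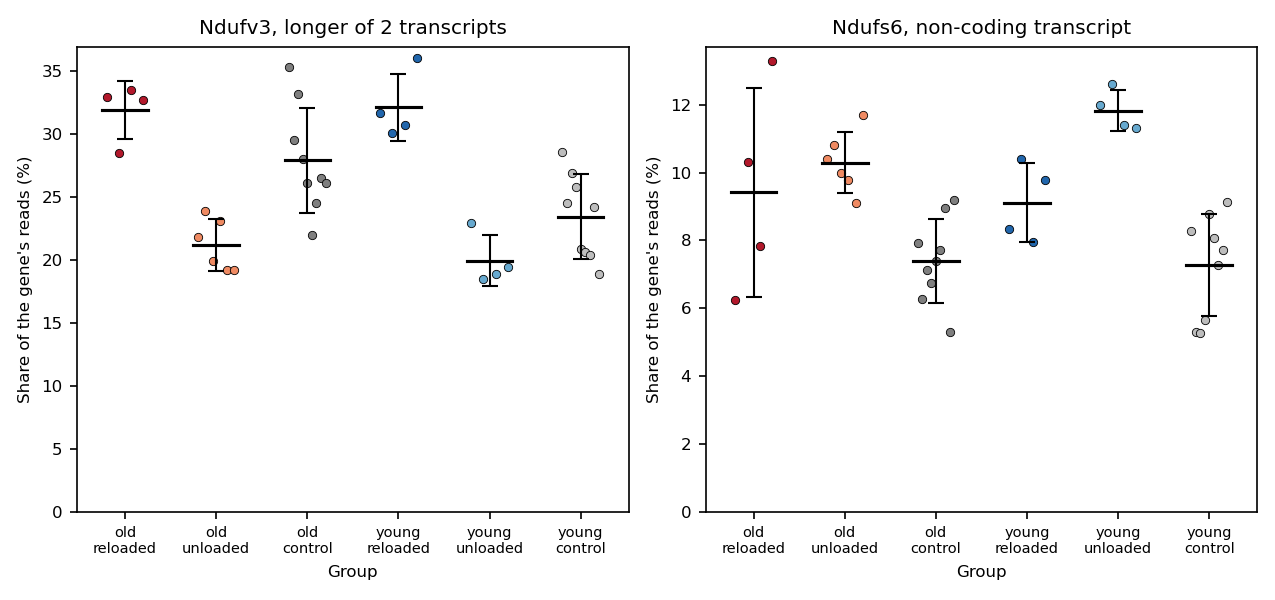
Share of reads, in percent, of the longer Ndufv3 transcript and of the non-coding Ndufs6 transcript in each library, with the mean and SD of each group, from old reloading at the left to young control at the right. The Ndufv3 share is highest in reloaded mice, and the Ndufs6 share is higher in unloaded than in control mice.

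Transcripts of complex I assembly factors changed on unloading in the same direction as those of its subunits. Of 21 assembly factor genes tested, 17 were lower and 0 higher in old unloading against old control mice (median -0.34), and 19 lower and 0 higher in young mice (median -0.52), where 23.2% and 21.7% of all genes were lower. On reloading 7 rose and 3 fell in old mice (median 0.09), and 6 rose and 3 fell in young mice (median 0.06). The shares called on reloading were near those of all genes, of which 27.8% were higher and 23.5% lower in old mice and 26.4% higher and 21.5% lower in young mice. Timmdc1, a membrane-arm assembly factor, averaged 27.6 ± 2.54 CPM in old reloading (SD, n = 4) against 15.6 ± 1.54 CPM in old unloading mice (SD, n = 6; log2 0.83, SE 0.07, adjusted p = 1.9e-11). In young mice it averaged 27.9 ± 1.09 CPM after reloading against 16.5 ± 1.18 CPM after unloading (SD, n = 4 each; log2 0.76, SE 0.08, adjusted p = 1.2e-09). Its reloaded level did not pass the test against control at either age (log2 0.08, adjusted p = 0.354 in old; -0.14, adjusted p = 0.0723 in young). Ndufaf4, a factor for the ubiquinone module, rose by 0.58 in old (SE 0.11, adjusted p = 8.43e-05) and 0.67 in young mice (SE 0.13, adjusted p = 4.66e-05). Nubpl, which delivers iron-sulfur clusters to the complex, rose by 0.38 in old (adjusted p = 0.00187) and 0.54 in young mice (adjusted p = 0.000187). Ecsit changed by -0.29 in old and -0.37 in young mice, among the falls. In old control against young control mice 7 assembly factors were lower and 0 higher (median -0.11), where 11.6% of all genes were lower and 12.1% higher.

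Subunit genes of complexes II to V moved like those of complex I. Of 41 tested, 39 were lower and 1 higher on unloading in old mice (median -0.48) and 40 lower and 0 higher in young mice (median -0.67), where 23.2% of all genes were lower and 19.5% higher in old mice and 21.7% and 19.1% in young mice. On reloading 15 were lower and 1 higher in old mice and 14 lower and 2 higher in young mice (median -0.13 at both ages), where 23.5% of all genes were lower in old and 21.5% in young mice. In old control against young control mice 29 were lower and 0 higher (median -0.23), where 11.6% of all genes were lower. The fall on unloading was not limited to complex I. Of 7 genes of other routes into ubiquinone, Etfa, Etfb and Etfdh of fatty acid oxidation fell at both ages (Etfdh by 0.61 in old and 0.81 in young mice on the log2 scale). Dhodh was called lower in old mice alone (-0.25, adjusted p = 0.00318), Sqrdl was called at neither age, and 2 genes rose at both ages. Prodh, of proline oxidation, rose by 1.06 (adjusted p = 9.7e-06) in old and 0.56 (adjusted p = 0.026) in young mice, and Gpd2, of the glycerol phosphate shuttle, by 0.33 (adjusted p = 0.00936) and 0.44 (adjusted p = 0.0024). Of 8 genes used as measures of mitochondrial mass, 6 fell and 1 rose at each age on unloading, against the same shares of all genes, with medians of -0.32 in old and -0.40 in young mice.

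Regulators of nuclear respiratory genes divided. Ppargc1a, the coactivator PGC-1 alpha, averaged 49.1 ± 4.79 CPM in old unloading (SD, n = 6) against 145 ± 122 CPM in old control mice (SD, n = 9), and 51.5 ± 9.28 CPM in young unloading (SD, n = 4) against 171 ± 93.4 CPM in young control mice (SD, n = 9). It fell by 1.56 in old mice (SE 0.37, adjusted p = 0.000786) and 1.74 in young mice (SE 0.44, adjusted p = 0.00161) on the log2 scale, with no call on reloading. Esrra, its estrogen-related receptor partner, changed by -0.73 in old and -0.72 in young mice. Tfam, of mitochondrial DNA maintenance, changed by -0.42 in old and -0.50 in young mice on unloading and by 0.37 and 0.38 on reloading, all called. Ppargc1b rose on reloading by 0.68 in old (adjusted p = 0.00197) and 1.06 in young mice (adjusted p = 4.23e-05), and Pprc1 by 0.60 in young mice, against 0.23 (not called) in old mice. The difference in reloading response, old minus young, was -0.37 for each of these genes (adjusted p = 0.509 for Ppargc1b and 0.287 for Pprc1). On unloading Ppargc1b fell in old mice (-0.59, adjusted p = 0.00201), with -0.18 (adjusted p = 0.421) in young mice. After reloading both genes were lower in old than in young mice, Ppargc1b by -0.83 (adjusted p = 0.00382) and Pprc1 by -0.41 (adjusted p = 0.0254). The difference in the reloaded against control response was -0.78 for Ppargc1b (adjusted p = 0.0477) and -0.52 for Pprc1 (adjusted p = 0.0501). Nrf1 and Gabpa fell on reloading (Nrf1 -0.17 in old and -0.24 in young; Gabpa -0.17 and -0.20), and on unloading Nrf1 in young mice was called (0.14, adjusted p = 0.0469), while Nrf1 in old mice and Gabpa were not. Yy1 was not called on unloading and changed by -0.15 in old mice (not called) and -0.19 in young mice (adjusted p = 0.0384) on reloading.

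Fibre-type and cell-type markers moved beside these results, and their part in them was not tested. Of 7 slow-fibre genes 4 were lower on unloading at each age (median -0.45 in old, -0.40 in young). Of all genes 23.2% were lower in old and 21.7% in young mice. Myh7, the slow myosin, was not called at either age. Of 8 fast-fibre genes 3 were higher and 2 lower in old mice and 2 higher and 2 lower in young mice. The share of all genes called higher was 19.5% in old and 19.1% in young mice. Myh2 of oxidative fast fibres was lower (-1.08 in old, -1.90 in young) and Myh1 higher (2.44 at both ages). Both myosins moved the other way on reloading, Myh1 by -1.89 in old and -2.11 in young mice and Myh2 by 1.36 and 2.15. In old control against young control mice 4 of 7 slow-fibre genes were higher and 5 of 8 fast-fibre genes lower. Of all genes 12.1% were higher and 11.6% lower in that comparison. The summed level of 6 macrophage genes was 152 to 244 CPM in old reloading, 107 to 152 CPM in old unloading and 71.3 to 104 CPM in old control mice, and 99.6 to 225 CPM in young reloading, 74.6 to 106 CPM in young unloading and 63.7 to 142 CPM in young control mice. Of these 6 genes, 4 rose on reloading in old mice and 6 in young mice, where 27.8% and 26.4% of all genes rose. Summed fibroblast and tendon markers (4 genes) were 260.0 to 362 CPM in old reloading against 380.0 to 535 CPM in old unloading mice, and 326 to 407 CPM in young reloading against 445 to 575 CPM in young unloading mice. These genes did not move together on reloading. Dcn fell (-0.68 in old, -0.56 in young), whereas Scx rose (1.74 and 1.76). Pdgfra was called only in young mice (-0.39), and Tnmd at neither age. The brown fat marker Ucp1 was at most 0.0292 CPM in any library. Cidea, also listed for brown fat, was 1.95 to 10.6 CPM over the libraries. It was called higher in old than in young mice in control (0.71), unloading (1.06) and reloading (1.63). On reloading its fall was called in young mice (-0.96) and not in old mice (-0.39).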

How the data were processed

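Whole soleus RNA from 36 mice was depleted of ribosomal RNA and sequenced as single-end 50-base reads on 1 flow cell, per the labels' protocols, which name both a TruSeq RNA and a TruSeq Stranded Total RNA kit. The submitters' processing notes name TopHat2 2.0.1, Partek 6.6, DESeq and mm10; their roles, and any use of strand in counting, are not stated. The deposited table holds estimated counts and RPKM per transcript made by the authors, for 31668 transcripts and 36 libraries. Of the deposited counts 55.7% of transcript values, and 94.9% of sums per gene, were whole within 0.01 reads.

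Reads were summed per symbol to 21156 genes and rounded to whole numbers. Library totals were between 32 M and 37.9 M reads. The filter of edgeR 4.0.16 (R 4.3.3) kept 15031 genes. A single quasi-likelihood model over the 6 groups (TMM scaling, 30 residual degrees of freedom, common biological coefficient of variation 0.149) gave 12 comparisons, each adjusted over all genes. The model was tested on simulated data. Members of a group differed beyond sampling noise in all 105 library pairs (chi-square per degree of freedom at least 8.93). Transcript shares were compared with exact permutation tests (scipy 1.17.1). Alternatives were DESeq2 1.42.0, other scalings and filters, the replicate block, the most abundant transcript, only the groups compared, controls numbered 1 to 6, omission of libraries with Alb above 20 CPM, and omission of each library.

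The genes, lists and comparisons were chosen with earlier results of these data known. Genes named by rule were the 7 core genes, the highest and lowest gene and genes against the majority direction in each comparison, Ndufa4, Ndufa4l2, and the 2 smallest p-values in each age difference; any other gene of the set was named after its values were seen. Precision is limited by 4 to 9 mice per group; Ndufs5, the lowest, had 39 to 171 reads per library. The values of 1 gene of the set enter the counts and medians but are not reported here.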

Additional observations from a re-analysis of the deposited data

Results flagged for a closer look

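Of 66 groups of libraries examined, 4 held a library far from the others by Dixon's test, where chance gives about 1 in 20. Ndufs1 was 321 CPM in the highest young unloading library, against 307 to 309 CPM in the other 3. Ndufa4 was 364 CPM in the highest young control library. The median log2 difference of the subunits was 0.1 in the highest young control library, mouse 2. The longer Ndufv3 transcript had a share of 28.5% in the lowest old reloading library.

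The response of reloaded against control muscle differed between old and young mice for 5 genes in edgeR's test of the difference, and all 5 were positive: Ndufb6 (0.42), Ndufa1 (0.41), Ndufc1 (0.39), Ndufa4 (0.33) and Ndufs6 (0.33). For Ndufa4 (adjusted p = 0.0369) the call ended without young control mouse 2 (0.054), young reloading mouse 2 (0.11), old control mouse 4 (0.0508), or old reloading mouse 2 (0.0606) or 4 (0.0797). None of the 5 was called without the 6 libraries with Alb (adjusted p = 0.17 to 0.574); the differences were then 0.38 for Ndufb6, 0.32 for Ndufc1, 0.27 for Ndufs6, 0.26 for Ndufa1 and 0.17 for Ndufa4.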

How the results depend on the processing

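Counts of called genes among the 38 stayed within 1.5 times of the reported count except as follows. Without the libraries with Alb the count was 14 for young reloading against unloading (22 reported), and 0 for old against young unloading (1), for old against young reloading (4) and for the reloaded against control response (5). For old against young reloading it was also 2 with no filter, 2 with the replicate block, 2 with the most abundant transcript and 1 with only the groups compared. With controls numbered 1 to 6 the unloading response had 1 call (0 reported) and the reloaded against control response 15, and with the DESeq2 Wald test the last had 9. Shares of all genes called under these alternatives are not given here. General changes in calls can therefore not be told apart from changes in this set.

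Leaving out each library gave 34 to 34 calls for young unloading, 19 to 21 for young reloading against unloading, 37 to 38 for young reloading against control, 31 to 34 for old unloading, 15 to 18 for old reloading against unloading, 34 to 35 for old reloading against control, 28 to 34 for old against young control, 0 to 1 for old against young unloading, 1 to 3 for old against young reloading, 0 to 0 for the unloading and reloading responses, and 1 to 8 for the reloaded against control response. Signs turned for Ndufs5 in old unloading (0.09 reported, not called; -0.03 with the replicate block, -0.05 with controls 1 to 6, and -0.02 to 0.22 with each library left out, the lowest without old unloading mouse 4) and for Ndufa4 in old against young reloading (0.13, not called; -0.04 without the libraries with Alb). Counted once per gene, comparison and alternative, 3161 results were unchanged in call and direction, 137 lost the call, 2 gained it and 4 turned in sign. Unchanged results include those called in neither fit. Fits with 1 library left out share nearly all their libraries with the reported fit. The causes were not tested.

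Mouse numbers recur in every group, and the labels do not state that they pair mice. Same-numbered libraries showed little joint deviation (median correlation -0.148 to 0.171 over pairs of groups). With 4 to 9 such pairs for any 2 groups, this cannot show whether same-numbered mice were handled together. With the replicate block, calls numbered 34, 21 and 38 for the young loading comparisons, 31, 18 and 34 for the old, 33 for old against young control, and 4 for the reloaded against control response.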
